A study of Mus musculus with 8 samples.

Results

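The 77 genes described here encode proteins of the cytosolic ribosome. They were taken from a table of 23234 mouse genes by symbol: every Rpl, Rplp, Rps or Rpsp gene with a plain number (an ending a or x allowed), together with Rpsa. Of the 77, 46 belong to the large subunit and 31 to the small subunit, and the rule uses no expression value. The cells were germinal centre B cells of the spleen from C57BL/6 mice carrying ERT2cre(KI/+) and B1-8hi(KI/+), an antigen receptor knock-in with high affinity for NP. Light zone (LZ) and dark zone (DZ) cells were either Bach2(f/f) Prdm1(f/f) or Bach2(+/+) Prdm1(f/f), with 2 libraries in each of the 4 groups. Prdm1 was floxed in every group, so the comparison is of both genes against Prdm1 alone, with no group of intact Prdm1. Naive donor B cells of each genotype were moved into wild-type recipients, tamoxifen (3 mg on each of 3 days) activated the Cre, and NP-CGG in alum was injected. On day 10 NP-binding GL7+ CD38- donor cells were sorted from spleens pooled over 5 recipients, LZ cells as CD86hi CXCR4lo and DZ cells as CD86lo CXCR4hi. The genotypes are written below as Bach2(f/f) and Bach2(+/+). The labels do not say whether the 2 libraries of a group came from separate pools, so each p-value measures the spread between these libraries only.

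Each ribosome holds a single copy of nearly every one of these proteins, with the acidic stalk proteins Rplp1 and Rplp2 as the known exception, and cells make the proteins in matching amounts. Their messages are among the most abundant in dividing cells, and most begin with a run of pyrimidines, the TOP motif, through which mTORC1 signalling and the RNA-binding protein Larp1 control their translation. Germinal centre B cells grow after help from T cells in the light zone and divide in the dark zone. The genome holds many processed copies of ribosomal protein messages, and reads from a message and its copy can be assigned to either.

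Values are FPKM, mapped fragments scaled by message length and library size, which puts genes on a common scale. A gene's level still depends on how reads shared with a copy were assigned, so comparisons of levels between genes are descriptions. A fold change is given as a difference of log2(FPKM + 1) with its standard error, from 1 limma fit over all 8 libraries. A gene is said to rise or fall where its adjusted p, over the 10610 genes tested, was below 0.05. All 77 members passed the filter of at least 1 FPKM in at least 2 libraries.

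As a check of the labels, Bach2 had 64.5 and 62.7 FPKM in Bach2(f/f) LZ libraries, against 49.8 and 53.4 in Bach2(+/+) LZ libraries. It had 96.2 and 94.5 FPKM in Bach2(f/f) DZ libraries, against 76.2 and 74.6 in Bach2(+/+) DZ libraries. The row was thus higher in the libraries labelled as floxed; a value over the whole gene does not show whether an exon was lost, so it does not check the genotype, and every direction below rests on the labels. Prdm1 was below 1 FPKM in all 8 libraries. The 8 germinal centre B cell markers summed to between 1736 and 2045 FPKM, and T cell markers summed to less than 1 FPKM in every library. Light zone markers (Cd86, Cd83 and Fcer2a) summed to between 508 and 757 FPKM in the LZ libraries and between 131 and 208 in the DZ libraries. The cells were sorted on the CD86 protein, so this sum is not independent of the gate. Depth relative to Bach2(+/+) DZ replicate 1, read from the smallest steps in the values, was 0.616 to 0.678 in the LZ libraries and 0.871 to 1 in the DZ libraries.

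Ribosomal protein genes took between 19.3% and 20.9% of all FPKM in every library. Their summed share was 19.4% and 19.3% in Bach2(f/f) LZ libraries, against 19.9% and 20.2% in Bach2(+/+) LZ libraries. In the dark zone it was 19.7% in each Bach2(f/f) library, against 20.2% and 20.9% in the Bach2(+/+) libraries. In both zones the Bach2(f/f) libraries lay below the Bach2(+/+) libraries with no overlap. Short RNA genes, whose FPKM is inflated by their length, took more of the LZ libraries (58615 to 66402 FPKM) than of the DZ libraries (44156 to 49076 FPKM). Without them the share was 21.8% ± 0.0656 in Bach2(f/f) LZ, against 22.8% ± 0.172 in Bach2(+/+) LZ, and 21.6% ± 0.057 in Bach2(f/f) DZ, against 22.6% ± 0.512 in Bach2(+/+) DZ (SD, n = 2 each). In bulk samples, fewer cells of a type and less RNA per cell cannot be told apart.

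**Figure D1:**
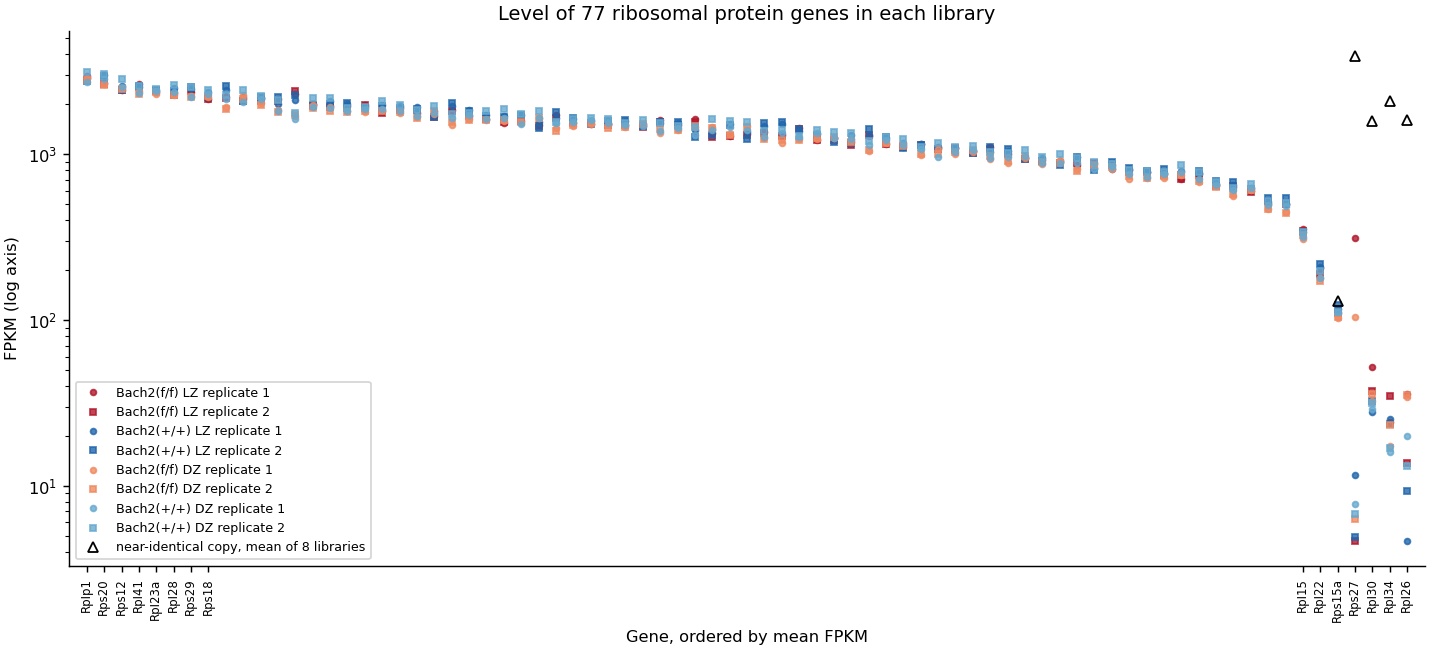
FPKM of each of the 77 genes in each of the 8 libraries on a log axis, ordered by mean with the highest and lowest named, and with the mean of a near-identical copy (open triangle) where the copy is higher. All but 5 genes lie between 194 and 2874 FPKM on average, and these 5 are the lowest.

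Levels within the group were even for most members. Of the 77, 72 had mean levels between 194 and 2874 FPKM with a median of 1428. The highest was Rplp1, a stalk protein that binds elongation factors, at 2874 FPKM on average. It was followed by Rps20 (2815), Rps12 (2532), Rpl41 (2497), Rpl23a (2401), Rpl28 (2388), Rps29 (2379) and Rps18 (2263). Neighbours in this order did not differ beyond their spread: Rplp1 ranged from 2716 to 3134 FPKM and Rps20 from 2631 to 3069 FPKM over the 8 libraries. Rpl41 and Rps29 have short coding sequences (141 and 171 bases), and the part of message length in these levels was not tested. Rpl22, which has a close paralog in Rpl22l1, was the lowest of the 72 at 194 FPKM, followed by Rpl15 at 333 FPKM. The median was 1349 FPKM for 43 large-subunit genes and 1654 FPKM for 29 small-subunit genes among the 72.

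The other 5 members, Rpl26, Rpl34, Rpl30, Rps27 and Rps15a, averaged 20.7, 22.7, 34.8, 57.3 and 111 FPKM. Each has a near-identical copy elsewhere in the genome with a row of its own in the table, and in each the copy's row was higher than the gene's. Rpl26, at the rim of the peptide exit tunnel, averaged 20.7 FPKM, against 1601 FPKM for Gm15772, a processed pseudogene that is 99.5% identical to its message over 438 bases. Rpl34 averaged 22.7 FPKM against 2088 for Rpl34-ps1 (99.4% identity over 354 bases), and Rpl30 averaged 34.8 FPKM against 1583 for Gm12191 (99.7% over 348 bases). Rps27 averaged 57.3 FPKM against 3939.9 for Gm9846, a retrotransposed gene also called Rps27rt that is 100% identical over 341 bases. Rps15a averaged 111 FPKM, against 129.6 FPKM for Gm11968 and 93.6 FPKM for Gm13253. Gm15772, Rpl34-ps1 and Gm12191 thus lay within the range of the other 72 ribosomal protein genes, Gm9846 lay above all 72, and Gm11968 lay below them. Rpl29, Rpl32, Rps19 and Rps26 also have such a copy, but at between 0.0437 and 0.126 times the gene's level.

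The sequences below show how little separates these rows. Each is 60 bases of the coding strand from GENCODE M21 transcripts (GRCm38), with the differing base in capitals and none for Rps27, whose window is identical. Positions count from 1 at the A of the gene's start codon. The differences over the whole aligned coding part were C177T and T288C between Rpl26 and Gm15772, T132C and C318G between Rpl34 and Rpl34-ps1, and G96A between Rpl30 and Gm12191, with the gene's base first.
Rpl26: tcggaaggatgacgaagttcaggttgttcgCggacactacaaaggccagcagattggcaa
Gm15772: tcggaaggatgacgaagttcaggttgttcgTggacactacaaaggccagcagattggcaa
Rpl34: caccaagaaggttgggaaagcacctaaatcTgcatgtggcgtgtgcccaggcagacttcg
Rpl34-ps1: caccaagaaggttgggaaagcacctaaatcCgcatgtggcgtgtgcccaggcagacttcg
Rpl30: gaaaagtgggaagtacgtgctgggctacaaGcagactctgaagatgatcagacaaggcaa
Gm12191: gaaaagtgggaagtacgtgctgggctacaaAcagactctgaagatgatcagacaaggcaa
Rps27: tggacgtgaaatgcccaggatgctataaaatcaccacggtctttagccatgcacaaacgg
Gm9846: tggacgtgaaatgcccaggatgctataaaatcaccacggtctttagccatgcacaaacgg

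**Figure D2:**
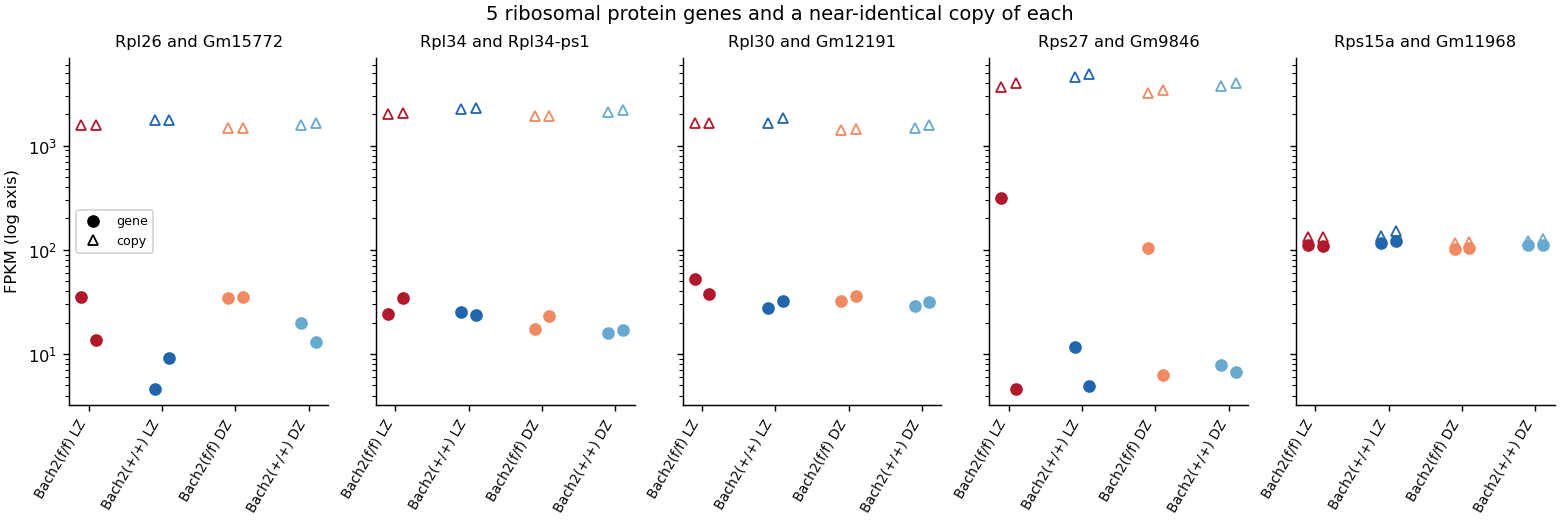
FPKM (log axis) of 5 ribosomal protein genes (filled circles) and a near-identical copy of each (open triangles) in the 2 libraries of each group. The copies of Rpl26, Rpl34, Rpl30 and Rps27 are at 1405 FPKM or more in every library, while the Rps27 row ranges from 4.63 to 312 FPKM.

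Replicates disagreed most for 4 of these genes. Rps27 had 312 and 4.63 FPKM in the 2 Bach2(f/f) LZ libraries, and 104 and 6.3 FPKM in the 2 Bach2(f/f) DZ libraries. The largest gap between replicates was 5.8 (log2) for Rps27 and between 0.47 and 1.31 for Rpl26, Rpl34 and Rpl30. Among the 72 others it was at most 0.265, with a median of 0.117.

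In the light zone, Bach2(f/f) cells had slightly lower ribosomal protein messages than Bach2(+/+) cells, and few single genes passed the test. Of the 77 members, 5 fell (6.49%; 12.7% of all genes tested fell) and 3 rose (3.9%; 18.4% of all genes rose). The members' median change was -0.047 (log2), against 0.022 over all genes, and 54 of the 77 lay below 0. The libraries of the groups did not overlap for 38 members that were lower in Bach2(f/f) (49.4%, against 29.3% of all genes) and for 7 that were higher (9.09%, against 36.5%). The share of members past the threshold was thus below that of all genes in each direction, while the non-overlapping members were mostly lower. The median stayed below 0 under every scaling tried, and the calls varied with it: 2 rose and 18 fell with upper quartile scaling, 3 rose and 20 fell with values rescaled without small RNA genes and members, 3 rose and 13 fell with a GC trend removed, and 2 rose and 3 fell with quantile normalization (median -0.010). Other cell markers moved with the genotype as well. Germinal centre B cell markers summed to 1787 and 1785 FPKM in Bach2(f/f) LZ libraries, against 2045 and 1998 in Bach2(+/+) LZ libraries, with 1 of 8 higher and 3 lower. The 3 light zone markers all fell, with sums of 508 and 521 FPKM in Bach2(f/f) LZ libraries, against 681 and 757 in Bach2(+/+) LZ libraries. Of the other markers tested, 1 of 4 myeloid markers rose, and 1 of 2 stromal and 1 of 3 naive or marginal zone B cell markers fell. None of the plasma cell, erythroid or dark zone markers passed in LZ. The part of any of these lists in the ribosomal protein changes was not tested.

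The members that fell in the light zone were Rpl17, Rpl13a, Rpl39, Rps6 and Rps15a. Rpl17, which lines the peptide exit tunnel, had 1307 and 1281 FPKM in Bach2(f/f) LZ libraries, against 1522 and 1555 in Bach2(+/+) LZ libraries. The groups did not overlap, and the change was -0.25 ± 0.05 (adjusted p = 0.0105, limma). Rpl13a, known outside the ribosome from the interferon-controlled silencing of inflammatory messages in human cells, had 1282 and 1290.4 FPKM in Bach2(f/f) LZ libraries, against 1519 and 1500.2 in Bach2(+/+) LZ libraries (-0.23 ± 0.05, adjusted p = 0.0161, limma). The replicates of each group lay close together, and the groups did not overlap. Rpl39, a short protein of the exit tunnel encoded on the X chromosome, had 2216 and 2184 FPKM in Bach2(f/f) LZ libraries, against 2431 and 2563 in Bach2(+/+) LZ libraries (-0.18 ± 0.05, adjusted p = 0.0402, limma). Rps6, the small-subunit protein phosphorylated by the S6 kinases downstream of mTORC1, had 1148 and 1153 FPKM in Bach2(f/f) LZ libraries, against 1258 and 1267 in Bach2(+/+) LZ libraries (-0.13 ± 0.04, adjusted p = 0.0454, limma). Rps15a, a small-subunit protein that shares sequence with its copies, had 110.5 and 109.6 FPKM in Bach2(f/f) LZ libraries, against 117 and 123 in Bach2(+/+) LZ libraries (-0.12 ± 0.04, adjusted p = 0.0429, limma). Summed with its copies, a step chosen after the data were seen, Rps15a changed by -0.11 ± 0.04 and was not past the threshold (adjusted p = 0.101, limma). All 5 were lower in both Bach2(f/f) LZ libraries than in either Bach2(+/+) LZ library. These calls were near the threshold: Rpl17 was lost without either Bach2(f/f) LZ library, and Rpl13a without any 1 of the 4 LZ libraries. Rpl39, Rps6 and Rps15a were also lost when some single libraries were left out. Quantile normalization ended the calls of Rpl17, Rpl39 and Rps6 (adjusted p = 0.0682, 0.0815 and 0.348, limma), with a change of -0.062 for Rps6. With only the 4 LZ libraries in the fit, Rpl39, Rps6 and Rps15a were not past the threshold (adjusted p = 0.0536, 0.0674 and 0.112, limma).

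Among the 3 members that rose in the light zone, Rps2 was the one with no near-identical copy above it. Rps2, which lies near the mRNA entry channel, had 1623 and 1561 FPKM in Bach2(f/f) LZ libraries, against 1396 and 1278 in Bach2(+/+) LZ libraries (0.25 ± 0.07, adjusted p = 0.0362, limma). The groups did not overlap in the light zone, and in the dark zone they did, with 1454 and 1481 FPKM in Bach2(f/f) and 1315 and 1467 FPKM in Bach2(+/+) libraries. The Rps2 call was lost without Bach2(f/f) LZ replicate 1 or 2, Bach2(+/+) LZ replicate 2 or either Bach2(f/f) DZ library, at an adjusted p of up to 0.165.

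Rpl26 and Rpl30 also rose on their own rows. Rpl26 had 35.6 and 13.8 FPKM in Bach2(f/f) LZ libraries, against 4.61 and 9.25 in Bach2(+/+) LZ libraries (1.62 ± 0.47, adjusted p = 0.0415, limma). Its copy Gm15772 fell at the same time, with 1564 and 1594 FPKM in Bach2(f/f) LZ libraries, against 1746 and 1744 in Bach2(+/+) LZ libraries (-0.14 ± 0.04, adjusted p = 0.0453, limma). Summed with its copy, Rpl26 had 1600.0 and 1608 FPKM in Bach2(f/f) LZ libraries, against 1750.3 and 1753 in Bach2(+/+) LZ libraries, a change of -0.13 ± 0.04 that was not past the threshold (adjusted p = 0.0594, limma). Rpl30, a large-subunit protein, had 52.3 and 37.5 FPKM in Bach2(f/f) LZ libraries, against 27.7 and 32.4 in Bach2(+/+) LZ libraries (0.55 ± 0.16, adjusted p = 0.0402, limma), and the sum with Gm12191 differed by -0.07 ± 0.07 (adjusted p = 0.445, limma). The direction of both genes thus turned when the copy was added, a step chosen after the data were seen. The call on the gene's own row was lost without any 1 of 6 libraries for Rpl26 (adjusted p up to 0.158) and without any 1 of 7 for Rpl30 (up to 0.148, limma). Rps27 summed with Gm9846 had 3965 and 4010.3 FPKM in Bach2(f/f) LZ libraries, against 4584 and 4889.8 in Bach2(+/+) LZ libraries, and fell (-0.25 ± 0.06, adjusted p = 0.0225, limma), whereas its own row gave 2.28 ± 1.96 (adjusted p = 0.419, limma).

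In the dark zone the members were again a little lower in Bach2(f/f) cells, and the same 3 genes stood out. Of the 77 members, 3 fell (3.9%; 5.23% of all genes fell) and none rose (6.63% of all genes rose; 0 members rose at an unadjusted p below 0.05 by limma, and 19 fell). The median change was -0.081, against 0.014 over all genes, and 70 of the 77 lay below 0. The groups did not overlap for 49 members that were lower in Bach2(f/f) (63.6%, against 26.3% of all genes) and for 3 that were higher (3.9%, against 32.3%). With quantile normalization 1 rose and 0 fell, and the median was -0.019. Germinal centre B cell markers summed to 1736 and 1741 FPKM in Bach2(f/f) DZ libraries, against 1936 and 1991 in Bach2(+/+) DZ libraries, with 1 of 8 higher and 3 lower. Light zone markers summed to 131 and 133 FPKM in Bach2(f/f) DZ libraries, against 198 and 208 in Bach2(+/+) DZ libraries, with 2 of 3 lower. Of the other markers tested in DZ, 1 of 2 plasma cell, 1 of 2 stromal and 1 of 3 naive or marginal zone B cell markers fell. None of the myeloid, erythroid or dark zone markers passed, and the part of any of these lists was not tested.

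Rpl39 had 1938 and 1886 FPKM in Bach2(f/f) DZ libraries, against 2165 and 2279 in Bach2(+/+) DZ libraries (-0.22 ± 0.05, adjusted p = 0.0461, limma). Rpl13a had 1322 and 1311 FPKM in Bach2(f/f) DZ libraries, against 1458 and 1579 in Bach2(+/+) DZ libraries (-0.21 ± 0.05, adjusted p = 0.0478, limma). Rpl17 had 1168 and 1216 FPKM in Bach2(f/f) DZ libraries, against 1336 and 1409 in Bach2(+/+) DZ libraries (-0.20 ± 0.05, adjusted p = 0.0432, limma). All 3 were lower in both Bach2(f/f) DZ libraries than in either Bach2(+/+) DZ library, and the calls were weak: Rpl17 and Rpl39 were lost without any 1 of the 8 libraries, and Rpl13a without any but Bach2(+/+) DZ replicate 1, at an adjusted p of up to 0.237 (limma). The 3 genes that fell in the dark zone were 3 of the 5 that fell in the light zone. The group means compared share no library between zones, but the fit takes its error from all 8 libraries. With only the 4 DZ libraries in the fit the adjusted p was 0.128 for Rpl17, 0.142 for Rpl13a and 0.132 for Rpl39, and with only the 4 LZ libraries it was 0.0199, 0.021 and 0.0536 for Rpl17, Rpl13a and Rpl39 (limma).

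Bach2(+/+) DZ replicate 2 stood apart from replicate 1. All 72 members without a higher copy were lower in replicate 1 than in replicate 2, with a median difference of -0.115 (log2), whereas in the other groups the median difference between replicates was between 0.001 and 0.013. Without replicate 2 the members' median dark zone change was -0.031 with 0 members past the threshold, and without replicate 1 it was -0.143 with 3. The size of the dark zone shift thus moved by more than 1.5 times with the library left out, and its sign did not.

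**Figure D3:**
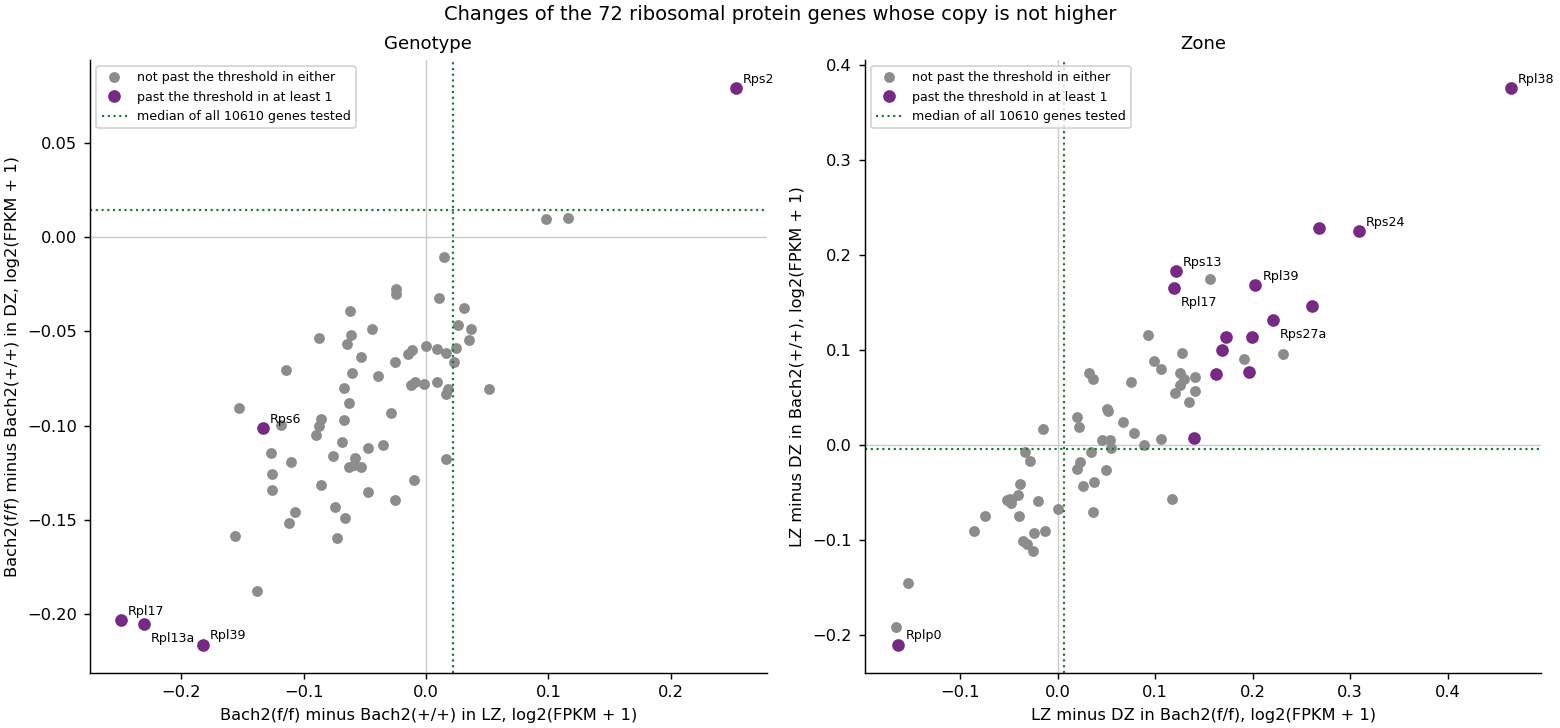
Change of log2(FPKM + 1) for the 72 genes whose copy is not higher: Bach2(f/f) minus Bach2(+/+) in DZ (y) against LZ (x) on the left, and LZ minus DZ in Bach2(+/+) (y) against Bach2(f/f) (x) on the right. Most points lie left of and below the medians of all genes (dotted) on the left, with Rpl17, Rpl13a and Rpl39 lowest, and Rpl38 stands highest on the right.

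**Figure D4:**
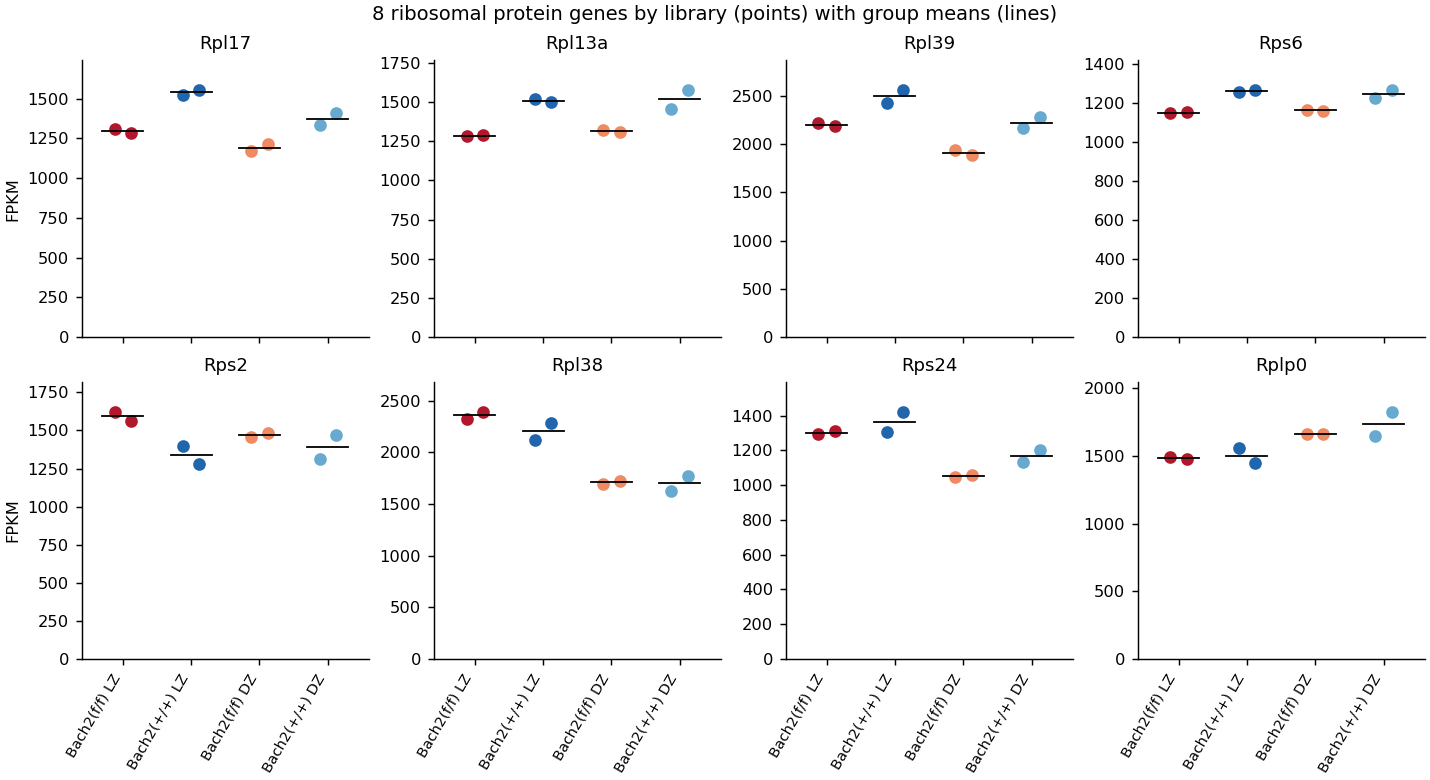
FPKM of 8 ribosomal protein genes in the 2 libraries of each group (points) with group means (lines), on axes from 0. Rpl17, Rpl13a, Rpl39 and Rps6 are lower in both Bach2(f/f) groups than in the Bach2(+/+) group of the same zone, and Rpl38 and Rps24 are higher in LZ than in DZ.

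Averaged over the zones, more members passed the test and nearly all pointed down. Of the 77 members, 15 fell (19.5%; 15.5% of all genes fell) and 3 rose (3.9%; 21.7% of all genes rose), with a median of -0.066 against 0.016 over all genes. In all, 69 of the 77 lay below 0. The split was 1 up and 38 down with upper quartile scaling, 4 up and 9 down when libraries were quantile normalized, and 5 and 5 with values centred on the members themselves. Rpl17 (-0.23 ± 0.03, adjusted p = 0.00336), Rpl13a (-0.22 ± 0.04, adjusted p = 0.00451) and Rpl39 (-0.2 ± 0.04, adjusted p = 0.00733, limma) fell by the most. These 3 stayed past the threshold with any 1 library left out and under each of the other settings tried (adjusted p at most 0.0429, limma). Those that fell also included Rpl37a, Rps15a, Rps6, Rps20, Rps14, Rps4x, Rps7, Rps13, Rpl7, Rpl31 and Rpl37, with changes between -0.16 and -0.09. With quantile normalization the calls of Rpl37a, Rps15a, Rps7 and Rpl37 held. The calls of Rps7 and Rpl37 were lost with no filter on low values and with values centred on the members, among other settings. That of Rps15a was lost with values centred on the members. All 4 genes also lost the call when some single libraries were left out. Quantile normalization ended the calls of Rps6, Rps20, Rps14, Rps4x, Rps13, Rpl7 and Rpl31, with changes from -0.088 (Rpl31) to -0.003 (Rps13). Rps20, a protein of the small-subunit head, had 2700.1 and 2661 FPKM in Bach2(f/f) LZ libraries and 2650.4 and 2631 in Bach2(f/f) DZ libraries, against 3007 and 2967 in Bach2(+/+) LZ libraries and 2832 and 3069 in Bach2(+/+) DZ libraries (-0.16 ± 0.04, adjusted p = 0.0203, limma). Its Bach2(f/f) libraries lay below all 4 Bach2(+/+) libraries, but the call was lost without any 1 of 5 libraries (adjusted p up to 0.0846, limma), with quantile normalization and with no filter on low values. The 3 that rose were Rps2 (0.17 ± 0.05, adjusted p = 0.0402) and, on their own rows only, Rpl26 and Rpl30 (adjusted p = 0.0211 and 0.0441, limma). The Rps2 call was lost with upper quartile scaling, with no filter on low values and with the replicate number as a block.

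Across the 72 members without a higher copy, the genotype change in LZ and in DZ had a Pearson correlation of 0.79, against 0.30 over all 10610 genes tested, and 56 of the 72 had the same sign. The points of each axis share the scaling of their libraries, and the correlation is given as a description. The difference between the 2 genotype effects was tested directly, and 0 members passed (0.0283% of all genes were higher and 0% lower). No member had an unadjusted p below 0.05 in that test (limma). The median light zone minus dark zone difference of the genotype effect was 0.047 for the members and 0.014 for all genes. It was -0.011 without Bach2(+/+) DZ replicate 2 and 0.106 without replicate 1, 0.003 with quantile normalization and 0.007 when scaled by upper quartiles, so neither its sign nor its size was stable.

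By place in the ribosome the groups are small, and their counts are given as descriptions beside the 12.7% of all genes that fell and the 18.4% that rose in LZ. Of 8 proteins of the exit tunnel and its rim, 2 fell and 1 rose in the light zone, and the 2 were Rpl17 and Rpl39. The 1 that rose was Rpl26, on its own row, and its direction turned when the copy was added. Of the 4 stalk proteins, which include Rplp0, Rplp1 and Rplp2, none passed in either genotype comparison; Rplp1 had 2965 and 2824 FPKM in Bach2(f/f) LZ libraries, against 2886 and 2779 in Bach2(+/+) LZ libraries. Rpl5 and Rpl11, which with the 5S rRNA bind Mdm2 when ribosome assembly is disturbed, did not pass the test. Rpl5 had 651 and 646 FPKM in Bach2(f/f) LZ libraries, against 665 and 689 in Bach2(+/+) LZ libraries, and Rpl11 had 1600.1 and 1556 FPKM in Bach2(f/f) LZ libraries, against 1551 and 1568 in Bach2(+/+) LZ libraries. Rps19, the gene most often mutated in Diamond-Blackfan anaemia in humans, had 1532 and 1499 FPKM in Bach2(f/f) LZ libraries, against 1512 and 1593 in Bach2(+/+) LZ libraries. Of 18 members in which mutations cause that anaemia, 1 rose in the light zone, Rpl26, on the row described above, and 0 fell. Rpsa, also known as the laminin receptor, had 1099 and 1098 FPKM in Bach2(f/f) LZ libraries, against 1162 and 1096 in Bach2(+/+) LZ libraries, and the groups overlapped.

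Light zone cells had more of some ribosomal protein messages than dark zone cells. Among the 72 members without a higher copy, Rpl38 differed the most. For the group as a whole, though not for Rpl38, the direction toward LZ turned with quantile normalization. In Bach2(+/+) cells it also turned when 1 library was left out. In Bach2(f/f) cells 12 of the 77 members were higher in LZ (15.6%; 18% of all genes) and 0 were lower (16.1% of all genes; 1 member was lower at an unadjusted p below 0.05, limma). In Bach2(+/+) cells 6 were higher in LZ (7.79%; 15.2% of all genes) and 1 was lower (1.3%; 16.1% of all genes). The median zone difference was 0.055 in Bach2(f/f) cells, against 0.007 over all genes, and 0.017 in Bach2(+/+) cells, against -0.004 over all genes. The Bach2(+/+) median was -0.032 without Bach2(+/+) DZ replicate 1 and 0.064 without replicate 2, so its sign rests on 1 library. The libraries of the zones did not overlap for 50 members higher in LZ in Bach2(f/f) cells (64.9%, against 37.7% of all genes) and for 24 in Bach2(+/+) cells (31.2%, against 32.7%). With quantile normalization 1 member was higher and 19 lower in LZ in Bach2(f/f) cells (median -0.076), and 3 were higher and 14 lower in Bach2(+/+) cells (median -0.080); with values rescaled without small RNA genes and members the counts were 8 and 5, and 9 and 3. For members lower in LZ without overlap the counts were 15 (19.5%, against 35.5%) and 9 (11.7%, against 33.1%).

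Rpl38, a small protein known from mice in which its loss alters the translation of Hox messages, had 2322 and 2393 FPKM in Bach2(f/f) LZ libraries, against 1691 and 1725 in Bach2(f/f) DZ libraries (0.46 ± 0.06, adjusted p = 0.00263, limma). In Bach2(+/+) cells it had 2120.2 and 2287 FPKM in LZ libraries, against 1622 and 1774 in DZ libraries (0.38 ± 0.06, adjusted p = 0.0067, limma). All 4 LZ libraries lay above all 4 DZ libraries, and neither call was lost with any 1 library left out (adjusted p at most 0.036, limma). Rps24, a small-subunit protein that is also a Diamond-Blackfan anaemia gene, had 1293 and 1311 FPKM in Bach2(f/f) LZ libraries, against 1046 and 1056 in Bach2(f/f) DZ libraries (0.31 ± 0.06, adjusted p = 0.00755, limma). It had 1305 and 1423 FPKM in Bach2(+/+) LZ libraries, against 1132 and 1200.5 in Bach2(+/+) DZ libraries (0.23 ± 0.06, adjusted p = 0.026, limma). Rps27a, made as a fusion with ubiquitin, was higher in LZ by 0.22 ± 0.04 in Bach2(f/f) cells (adjusted p = 0.00764) and by 0.13 ± 0.04 in Bach2(+/+) cells (adjusted p = 0.0493, limma). These 3 genes were past the threshold in both genotypes in the fit over all 8 libraries. With only the 4 Bach2(+/+) libraries in the fit, none of the 3 was past it in Bach2(+/+) cells (adjusted p = 0.0527 for Rpl38, 0.124 for Rps24 and 0.242 for Rps27a, limma). Leaving out 1 library ended the calls of Rps24 and Rps27a in both genotypes, with adjusted p up to 0.105 and 0.173 (limma). Quantile normalization ended the calls of both as well, with differences of 0.14 and -0.01 in Bach2(f/f) cells, and kept those of Rpl38 (0.29 and 0.25).

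Members higher in LZ in Bach2(f/f) cells also included Rps23, Rpl35a, Rpl31, Rpl39, Rps7, Rps25 and Rpl37, with differences between 0.16 and 0.26. Quantile normalization ended each of these calls, with differences from 0.03 (Rpl39) to 0.15 (Rpl35a). In Bach2(+/+) cells the members higher in LZ also included Rps13 and Rpl17. With quantile normalization Rpl17 differed by 0.02 in those cells and was not past the threshold. Rps13, a small-subunit protein, had 1477 and 1535 FPKM in Bach2(+/+) LZ libraries, against 1276 and 1377 in Bach2(+/+) DZ libraries (0.18 ± 0.05, adjusted p = 0.0385, limma). That call was lost without any 1 of 7 libraries (adjusted p up to 0.15, limma) and under 5 other settings. The member lower in LZ was Rplp0, the base of the stalk, with 1558 and 1443 FPKM in Bach2(+/+) LZ libraries, against 1648 and 1826 in Bach2(+/+) DZ libraries (-0.21 ± 0.06, adjusted p = 0.0497, limma). In Bach2(f/f) cells Rplp0 had 1492 and 1476 FPKM in LZ libraries, against 1663 and 1661 in DZ libraries, without passing the test (-0.16 ± 0.06, adjusted p = 0.0972, limma). The Rplp0 call was lost without any 1 of 6 libraries, at an adjusted p of up to 0.202.

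Zone differences of the 72 members were alike in the 2 genotypes, with a Pearson correlation of 0.91 (0.44 over all genes) and the same sign in 61. They also varied with coding GC and with protein length. The GC content of the coding sequence, which ran from 44.2% to 61.3%, correlated with the zone difference at -0.51 in Bach2(f/f) and -0.59 in Bach2(+/+) cells, with AT-rich members higher in LZ. For protein length the correlations were -0.42 and -0.45, and for GC at the third base of codons -0.17 in each genotype. Between replicates of a single group the correlation with coding GC reached 0.62 in Bach2(+/+) LZ and -0.70 in Bach2(+/+) DZ. With the genotype change coding GC correlated at 0.19 in LZ and 0.23 in DZ (n = 72 each, descriptions). With the GC trend over all genes removed from each library, a step chosen after the data were seen, Rpl38 was higher in LZ by 0.49 (adjusted p = 0.00201) in Bach2(f/f) and 0.42 (adjusted p = 0.00418, limma) in Bach2(+/+) cells. Rplp0 differed by -0.13 in Bach2(+/+) cells and no longer past the threshold (adjusted p = 0.0546, limma). Depth, given above, and myeloid markers also moved with the zone. The 6 myeloid markers (Lyz2, Csf1r, Tyrobp, S100a8, S100a9, Itgam) summed to 20.4 and 141 FPKM in Bach2(f/f) LZ libraries, against 2.62 and 0.919 in Bach2(f/f) DZ libraries, and to 6.42 and 50.1 FPKM in Bach2(+/+) LZ libraries, against 0.947 and 2.02 in Bach2(+/+) DZ libraries. In Bach2(f/f) cells 3 of the 4 tested were higher in LZ, and S100a8 and S100a9 were listed at 0 in 2 of the DZ libraries. The part of base composition, protein length, depth or myeloid cells in the zone differences was not tested further.

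**Figure D5:**
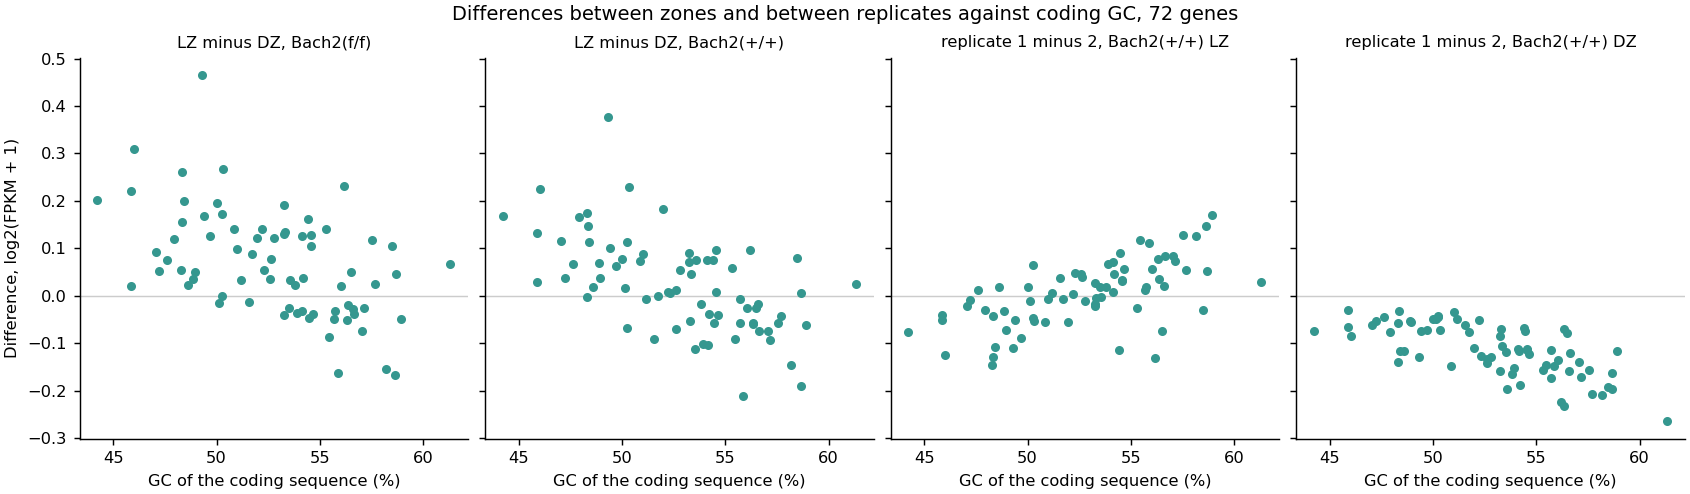
Difference of log2(FPKM + 1) against the GC content of the coding sequence for 72 genes: LZ minus DZ in Bach2(f/f) and in Bach2(+/+) cells, and replicate 1 minus 2 in Bach2(+/+) LZ and in Bach2(+/+) DZ. The slope is downward in both zone panels (correlations -0.51 and -0.59), upward between the LZ replicates (0.62) and downward between the DZ replicates (-0.70).

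Promoter sequences from RefSeq (GRCm38.p6, 250 bases before to 50 after the start) were held for 56 of the 77 members, with 66 starts. At least 7 consecutive C or T on the coding strand, all of them inside the 10 bases before to 10 bases after the start, were found at 25 of the 66 starts (37.9%), against 12.2% of all 32851 starts. The letters CTCTTTCC were found on either strand anywhere in the window at 13 starts (19.7%), against 3.12% of all starts. The ETS core CCGGAAG was found at 24 starts (36.4%, against 8.86% of all starts and 19.7% of the starts of genes tested here), and AAGATGGC, the YY1 core, at 7 (10.6%, against 2.75% and 4.86%). GGGCGG was found at 40 starts (60.6%, against 35.7% and 63.3%) and TATAAA at 6 (9.09%, against 13.6% and 6.77%). Windows of 35 bases before to 15 after the start are shown for members that fell in both zones or in the light zone (Rpl13a, Rpl39, Rps6), rose in the light zone (Rps2) or differed between zones (Rpl38, Rps24), with the longest pyrimidine run in capitals. In Rps6, Rpl38 and Rps24 that run spans the start, in Rpl13a it begins just after it, and in Rpl39 it lies before it. Rpl39 also has a shorter run after the start that reaches past the 10 bases searched, so it is not among the 25, and the longest run of Rps2 is shorter than 7.
Rpl13a: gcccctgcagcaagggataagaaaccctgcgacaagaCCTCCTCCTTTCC
Rpl39: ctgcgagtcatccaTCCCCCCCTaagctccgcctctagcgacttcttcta
Rps6: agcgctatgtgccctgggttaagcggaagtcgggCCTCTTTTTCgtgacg
Rps2: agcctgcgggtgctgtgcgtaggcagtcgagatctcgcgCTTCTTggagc
Rpl38: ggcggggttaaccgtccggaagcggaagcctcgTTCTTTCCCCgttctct
Rps24: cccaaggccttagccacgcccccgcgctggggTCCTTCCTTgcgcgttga
These windows lie at chr7:45128731-45128780 (minus strand), chrX:37085208-37085257 (minus), chr4:86857353-86857402 (minus), chr17:24720028-24720077 (plus), chr11:114668545-114668594 (plus) and chr14:24490643-24490692 (plus) in the order shown.

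Lists of genes that work with the ribosome are read against the share of all genes, of which 18.4% rose and 12.7% fell in LZ and 6.63% rose and 5.23% fell in DZ; no difference between a list and the ribosomal proteins was tested. Of 27 tested chaperones, importers and loading factors of ribosomal proteins, 18 rose and 0 fell in Bach2(f/f) LZ cells, with a median of 0.26, and 7 rose and 0 fell in the dark zone, with a median of 0.15. Mrto4, which is replaced by the stalk during assembly, had 73.8 and 70.3 FPKM in Bach2(f/f) LZ libraries, against 41.3 and 43.6 in Bach2(+/+) LZ libraries (0.75 ± 0.05, adjusted p = 0.00089, limma). Ipo5, a nuclear importer of ribosomal proteins, had 73.7 and 75.6 FPKM in Bach2(f/f) LZ libraries, against 47.3 and 49 in Bach2(+/+) LZ libraries (0.62 ± 0.04, adjusted p = 0.00088, limma). Tsr1, an assembly factor of the small subunit, rose by 0.51 ± 0.05 in LZ (adjusted p = 0.0013) and by 0.44 ± 0.05 in DZ (adjusted p = 0.0058, limma). The libraries of the genotypes did not overlap for any of these 3 genes in either zone.

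Among 17 tested genes between mTORC1 and TOP translation, 7 rose and 1 fell in the light zone, where 18.4% of all genes rose and 12.7% fell. Larp1, the TOP-binding repressor, rose by 0.39 ± 0.04 (adjusted p = 0.0021), and Eif4a1, the helicase of the cap-binding complex, by 0.54 ± 0.04 (adjusted p = 0.00092, limma). The gene that fell was Pdcd4, an inhibitor of that helicase (-1.33 ± 0.1, adjusted p = 0.00089, limma). Of 15 other genes with TOP messages, 5 rose and 2 fell in LZ with a median of 0.022, and of 7 tested elongation factors 4 rose and 0 fell. Of 28 genes of RNA polymerase I and III transcription, 5 rose and 0 fell in LZ, which for those that rose is near the share of all genes. In DZ 5 of the 28 rose and 0 fell, where 6.63% of all genes rose. Averaged over the zones 11 of the 28 rose and 0 fell, where 21.7% of all genes rose. Of 16 tested genes of the p53 response to free Rpl5 and Rpl11, 3 rose and 1 fell, also near the share of all genes for those that rose, with a median of -0.06, and the difference of Mdm2 was 0.01 ± 0.06 (adjusted p = 0.89, limma). Of 14 tested genes of ribosome rescue, 5 rose and 0 fell, and of 11 factors known to bind ribosomal protein promoters, 1 rose and 0 fell.

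Of the ribosomal proteins outside the symbol rule, Fau, whose product is cut into ribosomal protein S30, also fell, with 1627 and 1580.0 FPKM in Bach2(f/f) LZ libraries, against 2037 and 1958 in Bach2(+/+) LZ libraries (-0.32 ± 0.07, adjusted p = 0.014, limma). Gnb2l1 (Rack1) did not pass the test. Among paralogs, Rps27l, a p53 target in human cells related to Rps27, rose in the light zone with 246 and 229.9 FPKM in Bach2(f/f) LZ libraries, against 171 and 183 in Bach2(+/+) LZ libraries (0.43 ± 0.06, adjusted p = 0.0042, limma). Rpl22l1, the paralog of Rpl22, fell with 267 and 266 FPKM in Bach2(f/f) LZ libraries, against 311 and 331 in Bach2(+/+) LZ libraries (-0.27 ± 0.04, adjusted p = 0.0055, limma). Rpl22 itself had 205 and 188 FPKM in Bach2(f/f) LZ libraries, against 210.0 and 216 in Bach2(+/+) LZ libraries, and did not pass the test (-0.12 ± 0.06, adjusted p = 0.201, limma).

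The introns of 22 members hold 31 small nucleolar RNA genes with a row in the table. Of these rows, 14 were above 0 in all 8 libraries and 2 were listed at 0 in all of them. Those within Rpl13a varied between replicates: Snord33, chosen after its values were seen, had 951 and 248 FPKM in Bach2(f/f) LZ libraries, against 131 and 750 in Bach2(+/+) LZ libraries, so that replicates differed by more than the groups.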

How the data were processed

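The labels' protocols give TRIzol extraction and an NEBNext Ultra RNA library for each sorted sample. The authors deposited 1 table of FPKM values for 23234 genes and 8 libraries, and the table has no read counts, so depth is known only as a ratio between libraries. The submitters' processing notes list TopHat2 2.0.8, Cufflinks 2.1.1 and mm9 without saying what each was used for, and how reads that map to several places were shared is not given in the sources used here. From the table, log2(FPKM + 1) was modelled with limma 3.58.1 in R 4.3.3, with 1 mean for each of the 4 groups, a variance trend on level, and 4 residual and 2.46 prior degrees of freedom. Each 2-sided p was adjusted by Benjamini and Hochberg over the 10610 genes tested, separately for each contrast. The fit was also run on simulated data with independent noise for each gene and library. That simulation holds no shift shared by the genes of a library, so it does not cover the difference between the Bach2(+/+) DZ replicates. Near-identical copies were searched with blastn 2.17.0 in GENCODE M21 transcripts (at least 95% identity over 80% of the copy and 150 bases). Members were named where they passed the threshold, were the highest, the lowest or the most variable between replicates, or are well known. The symbol rule for the members uses no values, but the choice of this gene family, the lists and the rule for naming were made with earlier results of these data known. Alternatives varied the pseudocount, filter, scaling, variance model, copies and libraries. Results for some single genes are not reported here.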

Additional observations from a re-analysis of the deposited data

How the results depend on the processing

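Counts of members past the threshold are given as higher and lower, for the genotype comparison (Bach2(f/f) over Bach2(+/+)) or the zone comparison (LZ over DZ), all by limma. Without a filter on low values they were 0 and 2 in LZ, 0 lower in DZ, 1 and 5 for the mean genotype effect, 6 higher between zones in Bach2(f/f) and 1 and 0 in Bach2(+/+) cells. With no variance trend they were 1 and 3 in LZ, 0 lower in DZ and 3 and 0 between zones in Bach2(+/+) cells. With only the libraries compared they were 1 and 2 in LZ, 1 and 0 in DZ, 28 and 3 between zones in Bach2(f/f) and 1 and 0 in Bach2(+/+) cells. With upper quartile scaling they were 18 lower in LZ, 6 lower in DZ, 1 and 38 for the mean, and 1 lower between zones in Bach2(f/f) cells. With quantile normalization they were 3 lower in LZ, 1 and 0 in DZ, 9 lower for the mean, 1 and 19 between zones in Bach2(f/f) and 3 and 14 in Bach2(+/+) cells. Rescaled without small RNA genes and members, 20 were lower in LZ, 8 in DZ and 39 for the mean, and 5 and 3 between zones in Bach2(f/f) and Bach2(+/+) cells. The settings named next were chosen after the data were seen. Centred on the members, 1 was lower in DZ, 5 and 5 passed for the mean, and 9 and 5 were lower between zones in Bach2(f/f) and Bach2(+/+) cells; this moves the median of all genes to 0.105 in DZ. With the GC trend removed, 13 were lower in LZ, 10 in DZ and 33 for the mean, and 0 were lower between zones in Bach2(+/+) cells. With copies added, or without the members whose copy is higher, 1 was higher in LZ and 1 for the mean. The cause of these differences was not tested.

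The replicate numbers are not shown to pair the libraries: same-numbered libraries deviated from their group means with correlations between -0.108 and 0.124. With the replicate number as a block, 0 and 2 members passed in LZ, 0 were lower in DZ, 1 and 10 passed for the mean, and 10 and 0, and 4 and 0, between zones in Bach2(f/f) and Bach2(+/+) cells.

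With 1 library left out, members past the threshold ranged from 0 to 2 higher and 0 to 11 lower in LZ, 0 to 3 lower in DZ, 0 to 3 higher and 4 to 28 lower for the mean, 1 to 21 higher and 0 to 1 lower between zones in Bach2(f/f), and 1 to 8 higher and 0 to 4 lower in Bach2(+/+) cells. The lone library left in a group is assumed to vary like the others. Of 44 single-gene calls, leaving out 1 library ended between 11 and 36.

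Adding copies reversed Rpl26 (-0.127 in LZ, -0.115 for the mean), Rpl30 (-0.074 and -0.085), Rps27 (-0.25 and -0.22) and Rpl34 (-0.15 for the mean). Quantile normalization reversed Rplp1 (0.22 in DZ, 0.16 for the mean, -0.26 between zones in Bach2(f/f) cells) and Rps27a (-0.011 and -0.0084 between zones in Bach2(f/f) and Bach2(+/+) cells). The members' share of FPKM was 21.8%, 22.8%, 21.6% and 22.6% without small RNA genes in Bach2(f/f) LZ, Bach2(+/+) LZ, Bach2(f/f) DZ and Bach2(+/+) DZ libraries. In the same groups it was 16.9%, 17.6%, 17.2% and 17.9% without the 5 highest members, and 21.2%, 22.2%, 21.4% and 22.4% with copies added. Of 5456 further single-gene values, 4598 kept their direction and side of the threshold. Direction was not kept in 312 values that were short of the threshold in both settings, and in 12 where at least 1 setting was past it. The rest kept their direction but crossed the threshold.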
